A study of Mus musculus with 6 samples.

Results

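The 42 genes followed here mark cells that copy their DNA (S phase, 21 genes) or that enter and pass through mitosis (G2/M phase, 21 genes). They were picked by gene symbol alone, *Mcm2* to *Tipin* for S phase and *Mki67* to *Tacc3* for G2/M phase, and each symbol matched 1 of the 32285 genes in the deposited tables. Single-cell RNA-seq (10x, 3′ ends) counted their transcripts in tdTomato+ cells that had been sorted from back skin of 6 mice, with 1 library per mouse and 2 libraries in each of 3 groups, to compare the resting (telogen) and growing (anagen) skin and to follow the loss of Alk1, a TGF-β family receptor of ECs. All mice received tamoxifen (200 µg/g) at PD17, which switches on CreERT2 in cells that use the *Cdh5* (VE-cadherin) promoter and marks them and their progeny with tdTomato. The WT telogen mice were collected at PD20, 3 days after tamoxifen, and the WT anagen mice at PD32, 15 days after it, and both groups carried tdTomato;Cdh5-CreERT2;Krt14-H2BGFP on C57BL/6;CD1. The KO mice were Alk1 flox/flox;tdTomato;Cdh5-CreERT2 on C57BL/6, without the *Krt14* reporter, and were collected in telogen at PD25, 8 days after tamoxifen. Strain, age, time from tamoxifen and reporter allele therefore differ between the KO and WT telogen mice, and their part in any difference cannot be told apart from that of the deletion. The genotype entry of the KO libraries reads wild type, and their titles and descriptions, used here, read Alk1 KO. Both comparisons below share the same 2 WT telogen libraries, so they are not independent of each other.

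Genes of S phase serve DNA replication: the Mcm2 to Mcm7 helicase opens the double helix, Pcna clamps the polymerase onto it, and enzymes such as ribonucleotide reductase supply the nucleotides. Genes of G2/M phase come on later, under E2F first and then under the MuvB complex with B-Myb and FoxM1, and encode the kinase Cdk1 with its cyclins, the spindle and kinetochore proteins, and the ubiquitin ligase that ends mitosis. In grown skin most vessel ECs rest in G0, where the mitotic transcripts are nearly absent, while several replication genes keep a basal level that also serves DNA repair.

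The libraries held 10615358 to 43317677 UMIs (unique molecular identifiers, 1 per captured transcript), with the KO libraries the shallowest, and the filter on genes and mitochondrial UMIs kept 1713 to 5106 cells of each. Median UMIs per EC lay between 4271 and 5950 in the 6 libraries, and any pair of libraries shared 1 to 8 cell barcodes. Cells were grouped with the 42 genes and other cycle genes left out, and ECs also without the genes most correlated with the 42, and the groups were named from marker genes. Clusters with EC markers such as *Pecam1* and *Cdh5* are called ECs, 1250 to 4047 cells per library. None of the 10 EC markers was at 0 in the ECs of any library, and their summed level was 6328 to 6952 CPM (UMI counts scaled to one common total in every library). *Acvrl1*, which encodes Alk1, was at 155 and 131 CPM in telogen ECs, 134 and 156 CPM in anagen ECs and 118 and 96.4 CPM in KO ECs. A 3′ tag checks the deletion only if it lies in the deleted part of the gene, whose position was not given in the sources used here, so these values are no check of the label.

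The promoters of these genes carry short sequence elements that serve cycle-dependent transcription: the CCAAT box bound by NF-Y, the cell cycle homology region (CHR) bound by MuvB, and E2F sites. RefSeq start sites of GRCm38.p6 were found for 35 of the 42 genes, and windows of 300 bases around the start were searched on both strands. A CHR (TTTGAA or TTCGAA) lay in 14 of 18 G2/M genes (77.8%) and 3 of 17 S genes (17.6%), against 21.7% of 27025 genes. CCAAT lay in 15 of 18 G2/M genes (83.3%) and 12 of 17 S genes (70.6%), against 41.1% of all, and both elements in 14 of 18 and 3 of 17, against 8.61%. An E2F element (TTCCCGC, alternatively the letters TTCGCGC, alternatively the letters TTGCCGC, alternatively the letters TTGGCGC) lay in 5 of 18 G2/M genes (27.8%) and 10 of 17 S genes (58.8%), against 10.9% of all. Such a match is a description of letters and not a mapped binding site. The 150 bases before the start are printed for 7 genes on which the results below turn, 5′ to 3′ on the strand of the gene, with the matches in capitals. *Mki67*, *Top2a*, *Cdc20* and *Birc5* are of the G2/M list, and *Mcm5*, *Mcm6* and *Rrm1* of the S list.
Mki67, chr7:135716380-135716529, minus strand: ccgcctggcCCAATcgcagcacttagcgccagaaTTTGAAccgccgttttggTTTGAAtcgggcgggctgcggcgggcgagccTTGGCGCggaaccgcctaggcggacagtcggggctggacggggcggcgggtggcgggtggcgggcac
Top2a, chr11:99024190-99024339, minus strand: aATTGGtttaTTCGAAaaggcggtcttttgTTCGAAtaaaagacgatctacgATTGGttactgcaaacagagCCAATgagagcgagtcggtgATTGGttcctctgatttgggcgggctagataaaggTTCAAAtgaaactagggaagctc
Cdc20, chr4:118437344-118437493, minus strand: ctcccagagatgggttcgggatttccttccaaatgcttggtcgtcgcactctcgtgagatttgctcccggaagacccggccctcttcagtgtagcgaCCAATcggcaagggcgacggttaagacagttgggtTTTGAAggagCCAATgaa
Birc5, chr11:117849087-117849236, plus strand: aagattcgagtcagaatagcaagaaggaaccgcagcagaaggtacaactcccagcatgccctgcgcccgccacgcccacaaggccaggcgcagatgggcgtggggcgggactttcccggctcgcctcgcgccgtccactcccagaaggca
Mcm5, chr8:75109359-75109508, plus strand: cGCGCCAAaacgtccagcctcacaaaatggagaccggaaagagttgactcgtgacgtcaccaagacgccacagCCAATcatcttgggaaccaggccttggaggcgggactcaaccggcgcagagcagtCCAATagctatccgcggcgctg
Mcm6, chr1:128359706-128359855, minus strand: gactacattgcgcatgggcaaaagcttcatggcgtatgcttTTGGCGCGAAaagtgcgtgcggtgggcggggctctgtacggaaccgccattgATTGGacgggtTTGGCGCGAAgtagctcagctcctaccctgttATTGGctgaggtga
Rrm1, chr7:102441545-102441694, plus strand: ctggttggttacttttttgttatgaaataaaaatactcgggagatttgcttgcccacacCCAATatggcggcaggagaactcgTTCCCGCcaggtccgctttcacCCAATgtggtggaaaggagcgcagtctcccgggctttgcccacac
In *Mki67*, CCAAT stands 141 bases before the start, TTTGAA 116 and 98 bases before it, and the E2F letters TTGGCGC 67 bases before it. *Top2a* has 4 CCAAT boxes (ATTGG on the other strand) and 3 CHR matches in the stretch, and *Cdc20* has its TTTGAA 18 bases before the start, between 2 CCAAT boxes. *Birc5* has no match in these 150 bases. *Mcm5* and *Rrm1* each have 1 E2F match and 2 CCAAT boxes, and in *Mcm6* the E2F letters are read from both strands in overlapping pairs, so that 2 capital runs hold 4 matches.

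Cells with mitotic transcripts were rare among ECs, and rarer still in the KO. Each cell was thinned to 1500 UMIs, so that depth did not decide the count, and was counted as G2/M or S when it had UMIs of at least 2 genes of that list. G2/M cells made up 2.61% (30 of 1150 cells, 95% exact binomial interval 1.77 to 3.70%) and 2.52% (30 of 1189, 1.71 to 3.58%) of ECs in the telogen libraries. They were 3.0% (100 of 3332, 2.45 to 3.64%) and 1.65% (61 of 3705, 1.26 to 2.11%) of ECs in anagen. In the KO they were 0.310% (4 of 1292, 0.0844 to 0.791%) and 0.143% (2 of 1395, 0.0174 to 0.517%). Both KO libraries lay below all 4 WT libraries, and the anagen libraries lay on either side of the telogen ones. The KO mean was 2.34 percentage points below telogen (0.226 ± 0.118 against 2.57 ± 0.0605, SD, n = 2 each, exact permutation p = 0.333, two-sided, the smallest that 2 against 2 can give), and the anagen mean of 2.32 ± 0.958 lay 0.242 points below it, within the spread of the anagen libraries (exact permutation p = 1). Intervals cover counting error only. Over all ECs the share with S genes overlapped between telogen and the KO, at 13.9 and 13.3% in telogen, 14.9 and 14.1% in anagen and 11.5 and 14.1% in the KO.

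**Figure D1:**
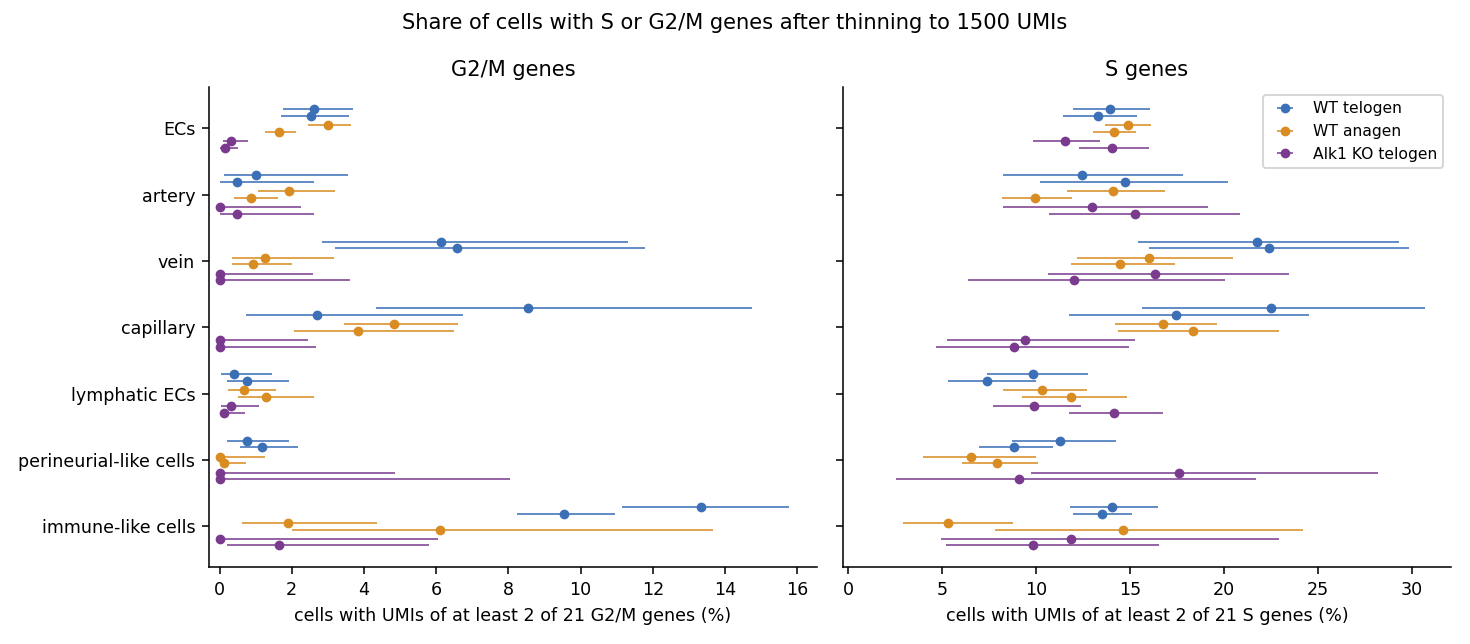
Share of cells with UMIs of at least 2 of 21 G2/M genes (left) or 2 of 21 S genes (right), in percent, after thinning each cell to 1500 UMIs. Each point is 1 library and each bar its 95% exact binomial interval. For all ECs the KO points lie at 0.310 and 0.143% for G2/M genes, below the 4 WT points at 1.65 to 3.0%, while for S genes the 6 points lie between 11.5 and 14.9%.

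Within ECs of telogen skin, both libraries had higher G2/M shares in capillary and vein clusters than in artery and lymphatic ones. Capillary ECs reached 8.53 and 2.68% in telogen and 4.84 and 3.85% in anagen, with 0 of 149 and 0 of 136 cells in the KO, which allows up to 2.01 and 2.21%. Vein ECs were at 6.12 and 6.58% in telogen and 1.25 and 0.922% in anagen, with 0 of 141 and 0 of 100 in the KO, which allows up to 2.13 and 3.0%. Vein libraries of telogen thus stood above those of anagen with no overlap, on 9 and 10 cells against 4 and 6. Artery ECs were lower in telogen, at 0.995 and 0.474%, and were at 1.92 and 0.858% in anagen and 0 and 0.476% in the KO. Lymphatic ECs had 0.401 and 0.759% in telogen, 0.678 and 1.27% in anagen and 0.303 and 0.128% in the KO, and their exact binomial intervals overlap one another. By vessel type, the KO mean of the S share lay below telogen in blood ECs and above it in lymphatic ECs, a difference that was not tested. In blood ECs (artery, vein and capillary clusters) they were 18.0 and 17.8% in telogen, 15.5 and 12.8% in anagen and 12.8 and 12.6% in the KO. Both KO libraries lay below both telogen ones (-5.21 points, exact permutation p = 0.333, the smallest that 2 against 2 can give). Capillary ECs had S shares of 22.5 and 17.4% in telogen and 9.40 and 8.82% in the KO. Those of vein ECs were 21.8 and 22.4% in telogen and 16.3 and 12% in the KO. In lymphatic ECs the S share was 9.82 and 7.40% in telogen, 10.3 and 11.8% in anagen and 9.86 and 14.1% in the KO. There the KO minus telogen difference was 3.38 points (n = 2 each, exact permutation p = 0.333). Unnamed ECs had G2/M shares of 3.45 and 7.33% in telogen, 5.13 and 2.33% in anagen and 1.10 and 0% in the KO. Lymphatic ECs made up 22.7 ± 21.3% of the G2/M ECs of a library and 39.0 ± 16.4% of its other ECs, lower in 6 of 6 libraries (exact permutation p = 0.0312 over 6 libraries, two-sided, adjusted p = 0.156 over 10 comparisons).

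Other sorted cell types also held cells with 2 or more G2/M genes, macrophage-like cells of telogen skin among them. Macrophage-like cells were at 14.0 and 10.2% in telogen against 0.467 and 2.33% in anagen and 0 of 34 and 0 of 62 in the KO, which allows up to 8.82 and 4.84%. All immune-like cells together were at 13.3 and 9.54%, 1.89 and 6.10%, and 0 and 1.64%. Over all libraries, 3.85% of immune-like cells had exactly 2 G2/M genes and 5.53% had 3 or more, against 0.464 and 1.42% of ECs. *Cenpa* was found in 11.6% of immune-like cells without 2 other G2/M genes, against 1.49% of such ECs. The part of this background in the immune-like share was not tested. Perineurial-like cells, named for markers of the nerve sheath, were at 0.750 and 1.19% in telogen, 0 and 0.134% in anagen, and 0 of 74 and 0 of 44 in the KO. Fibroblast-like cells, few of which divide in grown skin, served as the background: 1 of 536 thinned cells had 2 or more G2/M genes, at a median depth of 6643 to 17204 UMIs, and 4.35 to 21.2% had 2 or more S genes. The S share of all ECs therefore lay within the range of fibroblast-like cells, and it is not read as S phase. That range is wide on few cells per library. Pooled over libraries, 9.14% of fibroblast-like cells had exactly 2 S genes and 1.68% had 3 or more, against 10.1 and 3.87% of ECs. S shares of vein ECs in both telogen libraries, and of capillary ECs in telogen S1, lay above the range. ECs exceeded perineurial-like cells in G2/M share by 1.36 ± 1.05 points, in 6 of 6 libraries (exact permutation p = 0.0312, two-sided), which did not hold after adjustment over 6 comparisons (adjusted p = 0.188), and neither did the difference from immune-like cells (-3.71 ± 4.58 points, adjusted p = 0.188) nor that of lymphatic from blood ECs (-1.44 ± 1.77 points, adjusted p = 0.188). The last was -0.213 points when only the cycle genes were left out of the clustering, with a blood EC mean of 0.804% in place of 2.03%.

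UMIs of the mitotic genes lay largely in few ECs, and those of the S genes did so to very different extents. Of 12063 thinned ECs, 11098 had no G2/M gene, 738 had 1 and 227 had 2 or more, of which 116 had 5 or more and the richest 15. For each G2/M gene the share of its UMIs was taken in ECs that held at least 2 other G2/M genes, about 1.88% of ECs. *Hmmr* (a spindle-associated hyaluronan receptor) had 88.5% of its UMIs there, *Ube2c* (the E2 enzyme of the anaphase-promoting complex) 85.7% and *Birc5* (survivin, of the chromosomal passenger complex) 84.2%, and *Cenpa* (the centromeric histone H3) had the least of the list at 40.7%, with *Tacc3*, *Kif23* and *Cdc20* at 43.2, 44.1 and 46.6%. For the S list the same share was 50% for *Rrm2* (the cycle-regulated subunit of ribonucleotide reductase), 25.5% for *Cdc45*, 23.3% for *Hells*, 22.1% for *Clspn*, 21.2% for *Uhrf1* and 20.3% for *Mcm5*. At the low end it was 2.63% for *Ung* (a uracil-DNA glycosylase of base repair), 4.14% for *Rfc2*, 4.48% for *Mcm6* and 4.74% for *Pcna*, whose UMIs were found in 18.1% of the other ECs. The other S genes lay from 5.01% (*Slbp*) to 15.6% (*Gins2*). ECs with G2/M genes also carried S genes: 138 of 227 (60.8%) had 2 or more, against 13.0% of 11836 other ECs, with 60.0 to 63.3% in the 4 WT libraries and 1 of 6 such cells in the KO.

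**Figure D2:**
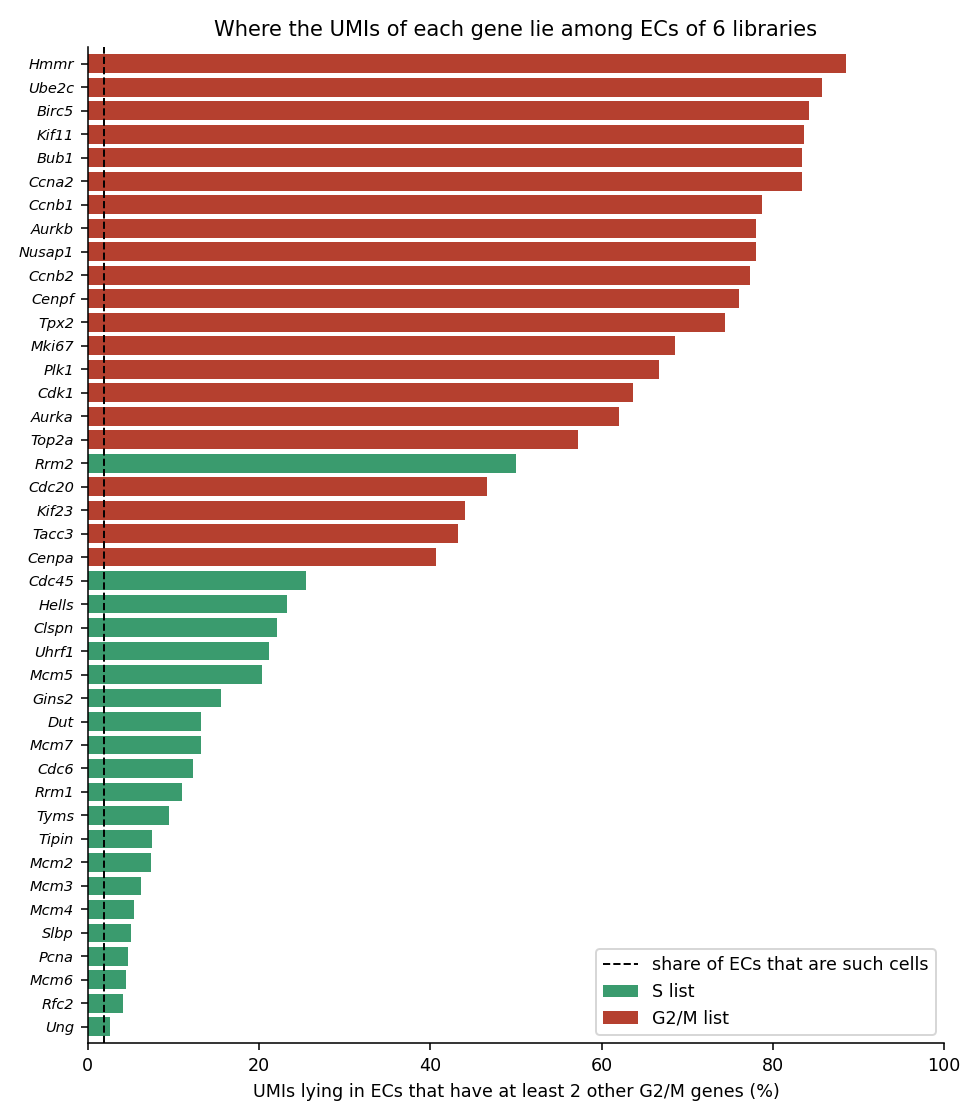
Percentage of each gene's UMIs that lie in ECs with UMIs of at least 2 other G2/M genes, pooled over 6 libraries after thinning, with S genes in green and G2/M genes in red. The dashed line is the share of ECs that are such cells, 1.88%. Bars of the G2/M list run from 40.7 to 88.5%, and those of the S list from 2.63 to 50%.

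ECs with G2/M genes held more RNA than the other ECs of the same library, although all were thinned before being counted. Their median UMIs per cell were 13676 against 5349 in telogen S1, 9123 against 4521 in telogen S2, 9842 against 6129 in anagen S1 and 7088 against 4876 in anagen S2. In the KO, on 4 and 2 cells, they were 6146 against 5246 and 8804 against 5080. The log2 ratio averaged 0.77 ± 0.39 (SD, n = 6 libraries), a 1.70-fold excess, higher in 6 of 6 libraries (exact permutation p = 0.0312, two-sided, the smallest that 6 libraries can give). It was not higher in all 6 with ECs holding immune genes left out (-0.09 in telogen S2, mean 0.41), at 3000 UMIs (-0.12 in KO S2, mean 0.51) or with 1 gene as the minimum (-0.05 in both KO libraries, mean 0.13). With 3 genes as the minimum the KO had no such cell. Of the 30 such cells of telogen S1, 15 were among its likely doublets, against 0 of 30, 9 of 100, 2 of 61, 1 of 4 and 0 of 2 in the other libraries. Without the likely doublets the log2 ratio of telogen S1 was 0.33 in place of 1.35. Without the likely doublets the mean telogen share of ECs was 1.93% in place of 2.57%, that of capillary ECs 1.78%, and the KO difference in ECs -1.74 points. At least 2 of 10 EC markers were found in 210 of the 227 cells (92.5%), and 2 or more of 46 immune markers in 9 after thinning (3.96%, against 6.40% of other ECs). Keratinocyte markers stood out, with 2 or more of 8 in 10 of the 227 cells (4.41%) against 0.0929% of other ECs. Of the 13 clusters made from ECs, an unnamed one of 29 thinned cells, 11 of them G2/M cells (37.9%), had the highest share. It met no marker of a vessel type, and the keratinocyte genes *Krt14*, *Krt17*, *Krt15*, *Sfn* and *Krt5* were among its leading genes. Its cells were nevertheless counted as ECs here, so the G2/M cells of ECs include cells with a keratinocyte profile. The part of doublets and of these marker genes in the results was not tested.

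**Figure D3:**
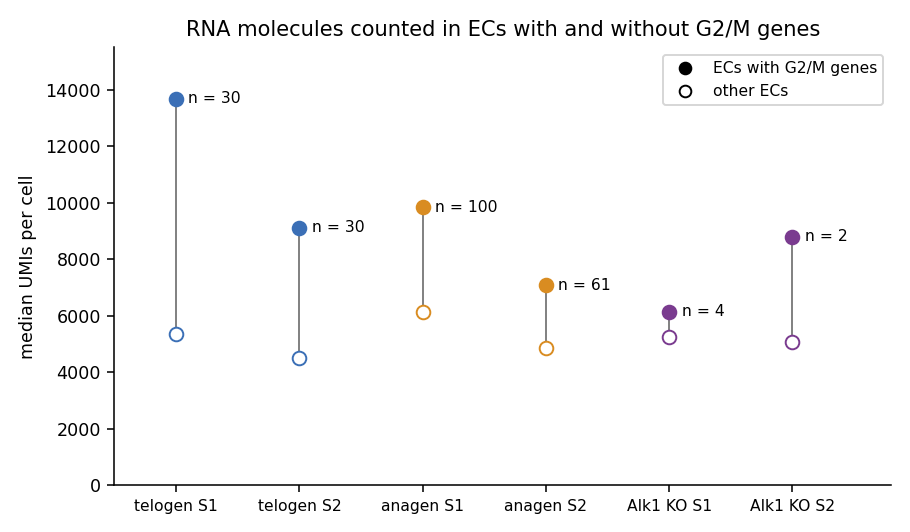
Median UMIs per cell of ECs with UMIs of at least 2 G2/M genes (filled) and of all other ECs (open) in each library, before thinning, with n the number of G2/M cells. Filled points lie above open ones in 6 of 6 libraries, from 6146 against 5246 in KO S1 to 13676 against 5349 in telogen S1.

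The question of the KO comparison was how these genes stood in ECs after loss of Alk1. Counts were summed over the ECs of each library and tested across libraries over all genes, and a gene was called when its adjusted p was below 0.05 and its fold above 1.3. In KO ECs 31 of the 42 genes fell and none rose, where 17.3% of 12890 genes tested fell and 14.8% rose. Of the 31, 20 were of the G2/M list (all but *Plk1*) and 11 of the S list. The median log2 change was -3.53 over the G2/M list and -0.72 over the S list, against 0.01 over all genes tested. Summed over the list, G2/M genes were at 362 and 269 CPM in telogen and 41.5 and 39.9 CPM in KO ECs, and S genes at 622 and 602 against 475 and 511 CPM. In summed counts, fewer cycling cells and fewer transcripts per cycling cell cannot be told apart.

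The kinase that drives entry into mitosis and its cyclins were nearly absent from KO ECs. *Cdk1* was at 22.5 and 18.2 CPM in telogen, 23.3 and 8.69 CPM in anagen and 0.5 and 0.123 CPM in the KO, a change of -6.02 ± 0.40 (log2 ± SE, edgeR quasi-likelihood test, adjusted p = 8.06e-05). Cyclin A2 (*Ccna2*) was at 8.91 and 8.21 CPM in telogen, 8.28 and 2.83 CPM in anagen and 0.624 and 0.613 CPM in the KO (-3.81 ± 0.35, adjusted p = 2.57e-04). Both KO values lay below all 4 WT values for each gene, and the lowest WT value in each case was that of anagen S2. The B cyclins *Ccnb1* and *Ccnb2* also fell, and *Ccnb1* came down from 89 UMIs in telogen ECs to 3 in KO ECs, a ratio of pooled CPM of 0.0304 (95% counting interval 0.00615 to 0.0917).

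Among the mitotic kinases, *Aurkb*, of the chromosomal passenger complex, was at 6.68 and 4.75 CPM in telogen, 4.96 and 2.55 CPM in anagen and 0 and 0.123 CPM in the KO. That is 84 UMIs against 1, a ratio of 0.0107 (counting interval 0.000268 to 0.0614), and the fitted change had an adjusted p of 5.28e-04 (edgeR). Its partner *Birc5* was at 31.6 and 23.5 CPM in telogen, 25.5 and 10.8 CPM in anagen and 0.624 and 0.735 CPM in the KO (-5.36 ± 0.31, edgeR adjusted p = 4.46e-05), the smallest p of the 42. The spindle checkpoint kinase *Bub1* had 64 UMIs in telogen ECs and none in either KO library, at least 23.7-fold lower when 3 counts are allowed over the group. *Aurka*, the centrosomal kinase, fell from 3.54 and 2.16 CPM to 0.749 and 1.10 CPM (-1.66 ± 0.46, edgeR adjusted p = 0.0261). *Plk1*, which was not called, had 24 and 15 UMIs in telogen and 11 and 2 in the KO.

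Spindle and chromosome genes were likewise low in both KO libraries. *Tpx2*, which activates Aurora A on the spindle, was at 11.8 and 10.8 CPM in telogen, 11.9 and 5.85 CPM in anagen and 0.624 and 0.735 CPM in the KO (-4.07 ± 0.32, edgeR adjusted p = 1.36e-04). The kinetochore gene *Cenpf* was at 24.4 and 19.3 CPM in telogen, 24.8 and 7.88 CPM in anagen and 0.999 and 1.35 CPM in the KO (-4.25 ± 0.28, adjusted p = 7.51e-05). *Hmmr* was at 9.83 and 9.37 CPM in telogen, 9.67 and 1.98 CPM in anagen and 0.25 and 0.735 CPM in the KO (-4.29 ± 0.41, adjusted p = 3.16e-04). For these 3 genes each KO library lay below each WT library. *Mki67*, whose protein Ki-67 coats mitotic chromosomes and is the usual stain for cycling cells, was at 27.3 and 25.2 CPM in telogen, 27.2 and 12.9 CPM in anagen and 2.5 and 3.31 CPM in the KO (-3.22 ± 0.21, edgeR adjusted p = 7.48e-05). *Top2a*, the topoisomerase that untangles sister chromatids, was at 41.8 and 28.2 CPM in telogen, 30.8 and 17.9 CPM in anagen and 7.12 and 5.88 CPM in the KO (-2.48 ± 0.24, adjusted p = 3.25e-04).

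The genes that serve the mitotic ubiquitin ligase fell in KO ECs. *Ube2c* was at 48.1 and 27.8 CPM in telogen, 30.2 and 8.50 CPM in anagen and 1.62 and 1.10 CPM in the KO (-4.84 ± 0.37, edgeR adjusted p = 1.24e-04). *Cdc20*, the activator of the same ligase, was at 16.0 and 14.7 CPM in telogen, 18.8 and 6.42 CPM in anagen and 6.12 and 6.86 CPM in the KO (-1.29 ± 0.20, adjusted p = 0.00206). The remaining called G2/M genes, *Nusap1*, *Kif11*, *Kif23*, *Cenpa* and *Tacc3* (motors and builders of the spindle and the centromere), had log2 changes from -1.31 to -3.53. The 4 genes with the smallest share of their UMIs in G2/M ECs, *Cenpa*, *Tacc3*, *Kif23* and *Cdc20*, had log2 changes of -2.14, -1.31, -1.61 and -1.29, all nearer to 0 than the list median. That share was pooled over all libraries, KO included, where G2/M ECs were rare. UMIs that a gene kept in KO ECs thus lowered its share, so share and change are not independent.

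**Figure D4:**
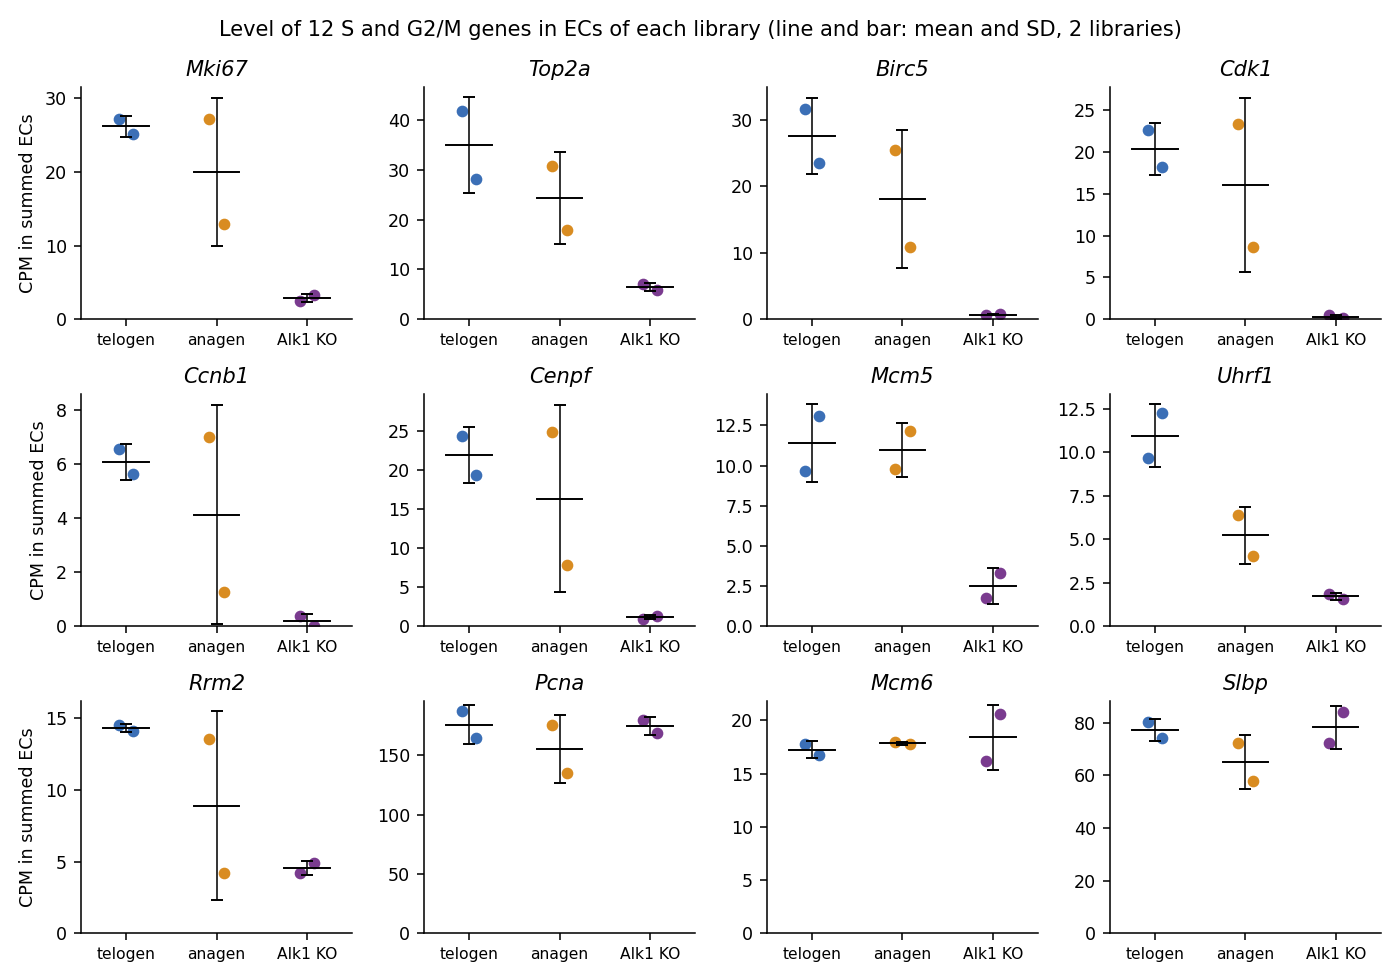
Level of 12 of the 42 genes in the summed ECs of each library, in CPM, with the mean and SD of 2 libraries per group. The G2/M genes *Mki67*, *Top2a*, *Birc5*, *Cdk1*, *Ccnb1* and *Cenpf* and the S genes *Mcm5* and *Uhrf1* have their KO points at the bottom, *Rrm2* has them level with anagen S2, and *Pcna*, *Mcm6* and *Slbp* have theirs at the level of the WT points.

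The S list split in the KO. Of the helicase subunits, *Mcm5* was at 9.70 and 13.1 CPM in telogen, 9.80 and 12.2 CPM in anagen and 1.75 and 3.31 CPM in the KO (-2.21 ± 0.33, edgeR adjusted p = 0.0018) and *Mcm2* at 11.7 and 13.3 CPM in telogen, 8.33 and 9.63 CPM in anagen and 3.50 and 3.43 CPM in the KO (-1.89 ± 0.23, adjusted p = 7.98e-04). The other 4 subunits of the same ring were not called, and *Mcm6* was at 17.8 and 16.7 CPM in telogen, 18.0 and 17.7 CPM in anagen and 16.2 and 20.6 CPM in the KO (change 0.04 ± 0.17). *Cdc45* and *Gins2*, which complete the active helicase, fell (-1.43 and -1.74, log2), and *Cdc6*, which loads it, was at 3.67 and 3.60 CPM in telogen and 2.12 and 2.08 CPM in the KO without a call. The clamp *Pcna* was at 187 and 165 CPM in telogen, 176 and 135 CPM in anagen and 180.2 and 169 CPM in the KO (change -0.06 ± 0.11, edgeR adjusted p = 0.71), and *Slbp*, which handles histone mRNA, at 80.0 and 74.2 CPM in telogen, 72.1 and 57.8 CPM in anagen and 72.4 and 84.0 CPM in the KO. For these 3, *Mcm6*, *Pcna* and *Slbp*, the KO and telogen values overlapped.

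All 4 genes of nucleotide supply fell in KO ECs. Thymidylate synthase (*Tyms*) was at 63.0 and 53.7 CPM in telogen, 51.8 and 77.0 CPM in anagen and 24.1 and 27.1 CPM in the KO (-1.24 ± 0.13, edgeR adjusted p = 4.72e-04). *Rrm2* was at 14.5 and 14.1 CPM in telogen, 13.6 and 4.25 CPM in anagen and 4.25 and 4.90 CPM in the KO (-1.70 ± 0.21, adjusted p = 8.66e-04), and the second subunit of that enzyme, *Rrm1*, at 26.5 and 23.5 CPM in telogen and 13.7 and 17.8 CPM in the KO (-0.72 ± 0.17, adjusted p = 0.0135). The dUTPase gene *Dut* was at 40.9 and 43.1 CPM in telogen and 24 and 24.7 CPM in the KO (-0.83 ± 0.12, adjusted p = 0.00153). *Uhrf1*, which carries DNA methylation through replication, was at 9.70 and 12.2 CPM in telogen, 6.39 and 4.06 CPM in anagen and 1.87 and 1.59 CPM in the KO (-2.70 ± 0.29, edgeR adjusted p = 4.75e-04), and was the S gene with the largest fall. The chromatin remodeller *Hells* and the fork protein *Clspn* also fell (-1.46 and -0.69), while *Tipin*, *Rfc2* and *Ung* did not pass the test (-0.30, -0.22 and -0.04).

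Of the 31 calls in KO ECs, 24 were made under every setting and library left out, and all 31 kept their direction. Immune marker genes in ECs were also lower in anagen and the KO than in telogen: the 10 macrophage and myeloid markers summed to 74.7 and 135 CPM in telogen, 27.0 and 15.5 CPM in anagen and 18.5 and 22.4 CPM in the KO, with 0, 0, 0, 1, 1 and 1 of the 10 at 0, and *Ptprc* at 1.31, 4.18, 0.673, 0, 0 and 0 CPM. Summed G2/M genes in the same ECs were at 362 and 269 CPM in telogen, 314 and 131 CPM in anagen and 41.5 and 39.9 CPM in the KO. Other marker lists moved too: the 10 fibroblast markers summed to 123 and 166 CPM in telogen, 67.9 and 109 CPM in anagen and 26.2 and 19.6 CPM in KO ECs, with 0, 0, 0, 0, 1 and 2 of the 10 at 0. Vessel type markers differed as well, with 10 capillary markers at 13420 and 14433 CPM in telogen and 9337 and 7700 CPM in the KO and 9 lymphatic markers at 2537 and 3212 CPM and 4366 and 5009 CPM. The part of these markers in each gene's change was not tested. Counted before thinning, immune markers were found in more ECs. Leaving out ECs with 2 or more of them by that count left 590 of 1150 and 502 of 1189 thinned telogen ECs. These held 13 and 8 G2/M cells in place of 30 and 30, and the KO 3 and 1 in place of 4 and 2. This gave a telogen share of G2/M ECs of 1.90% and a KO difference of -1.70 points. The gene calls were not repeated without these ECs, so the settings counted for the 31 calls do not include this one.

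The telogen to anagen comparison asked whether ECs change these genes as hair follicles begin to grow. No gene of the 42 was called in ECs by edgeR, with 4 at an unadjusted p under 0.05 and 0 by DESeq2, where 4.44% of 13704 genes tested were called in either direction. The median log2 change was -0.36 over the G2/M list and 0.10 over the S list, against 0.01 over all genes tested. Plain CPM scaling in place of TMM moved the median log2 change of all genes by -0.17 in anagen ECs (-0.12 in blood ECs, -0.11 in lymphatic ECs and -0.22 in immune-like cells), which turns the sign of the S median. The members with most UMIs were *Pcna* (187 and 165 CPM in telogen, 176 and 135 CPM in anagen, change -0.01 ± 0.15), *Slbp* (80.0 and 74.2 against 72.1 and 57.8 CPM, -0.08 ± 0.13) and *Tyms* (63.0 and 53.7 against 51.8 and 77.0 CPM, 0.32 ± 0.22) of the S list. Of the G2/M list they were *Top2a* (-0.36 ± 0.30), *Ube2c* (-0.81 ± 0.57) and *Cenpa* (-0.12 ± 0.31), the last at 31.3 and 23.1 CPM in telogen and 28.9 and 15.5 CPM in anagen. The anagen libraries disagreed with each other on the mitotic genes: summed G2/M genes were at 314 CPM in anagen S1 and 131 CPM in anagen S2, against 362 and 269 CPM in telogen. Without anagen S1, edgeR called 20 of the 42 genes (18 lower and 2 higher than in telogen), and without anagen S2 it called 0. Smallest in p were *Tipin*, a fork protection gene (0.51 ± 0.14, adjusted p = 0.0983), and *Uhrf1* (-0.89 ± 0.27, adjusted p = 0.108).

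Split by vessel type, more of the 42 genes fell in blood ECs (artery, vein and capillary clusters) than in lymphatic ECs. Unnamed ECs entered neither class in any fit by vessel type. They held 6 of 30 and 11 of 30 G2/M ECs in telogen, 40 of 100 and 26 of 61 in anagen and 2 of 4 and 0 of 2 in the KO. Their summed G2/M level was 279 and 547 CPM in telogen, 437 and 157 CPM in anagen and 42.4 and 30.4 CPM in the KO. In blood ECs 31 of the 40 genes tested fell and none rose, where 17.5% of 11005 genes fell and 14.4% rose. *Aurka* and *Plk1* did not reach the count filter. *Cdk1* was at 38.6 and 27.8 CPM in telogen, 23.4 and 9.40 CPM in anagen and 0.642 and 0.366 CPM in the KO (-5.96 ± 0.44, edgeR adjusted p = 1.96e-04), and *Ube2c* at 83.0 and 40 CPM in telogen, 27.2 and 6.29 CPM in anagen and 0.962 and 0.366 CPM in the KO (-6.47 ± 0.62, adjusted p = 4.71e-04). The fall of *Birc5* (-5.97 ± 0.52), *Cenpf* (-5.13 ± 0.47), *Mki67* (-3.52 ± 0.40), *Ccna2* (-4.66 ± 0.54), *Tpx2* (-3.99 ± 0.52), *Hmmr* (-3.95 ± 0.56) and *Top2a* (-2.75 ± 0.38) followed the same direction. *Birc5* was at 55.8 and 31.3 CPM in telogen and 0.642 and 0.733 CPM in the KO, and the other 6 were likewise lower in each KO library than in each telogen library. *Aurkb* and *Bub1* had no UMI in KO blood ECs, at least 17.3-fold and 14.0-fold lower than in telogen by a bound on UMI counts alone. Of the S list, *Tyms* was at 91.7 and 62.9 CPM in telogen, 54.4 and 73.6 CPM in anagen and 24.1 and 26.4 CPM in the KO (-1.67 ± 0.21, adjusted p = 0.00123), *Mcm5* at 14.8 and 18.0 CPM in telogen, 12.6 and 12.2 CPM in anagen and 0.642 and 2.56 CPM in the KO (-3.42 ± 0.46) and *Cdc20* of the G2/M list at 22.7 and 17.4 CPM in telogen, 19.1 and 4.53 CPM in anagen and 3.85 and 5.13 CPM in the KO (-2.21 ± 0.31). When only the cycle genes, and not the genes that follow them, were left out of the clustering, edgeR called 14 genes in blood ECs in place of 31. The change of *Rrm2* turned to 0.54 there. Between anagen and telogen no gene of the 42, and 0% of 12337 tested, was called in blood ECs by edgeR, with 6 of the 42 at an unadjusted p under 0.05, 0 by DESeq2, and 9 lower when anagen S1 was left out. All 21 G2/M genes had a negative fitted change there, with a median of -0.90, and the range of summed G2/M levels was 337 to 608 CPM in telogen and 117 to 328 CPM in anagen.

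In lymphatic ECs the mitotic genes were low in every group, so fewer could be tested. Their summed level was 59.5 and 78.5 CPM in telogen, 82.7 and 124 CPM in anagen and 42 and 40.4 CPM in the KO. Of 23 genes tested in the KO, 4 fell and 2 rose, where 13.2% of 10975 genes fell and 12% rose. Both counts lay near the share of all genes and are not read as a result about the 42 genes. *Uhrf1* was at 4.30 and 7.78 CPM in telogen, 2.88 and 5.02 CPM in anagen and 0.819 and 0.467 CPM in the KO (-3.23 ± 0.59, edgeR adjusted p = 0.00342). *Mcm2* (7.53 and 11.7 CPM in telogen, 4.09 and 3.97 CPM in the KO, -1.3 ± 0.37), *Top2a* (18.6 and 12.8 against 7.91 and 5.61 CPM, -1.29 ± 0.32) and *Mki67* (4.30 and 7.78 against 1.91 and 2.34 CPM, -1.53 ± 0.47) fell with it. The helicase subunits *Mcm3* and *Mcm6* rose, *Mcm3* from 12.2 and 17.9 CPM to 25.4 and 29.4 CPM (0.82 ± 0.23, adjusted p = 0.0286) and *Mcm6* from 12.9 and 9.72 CPM to 19.1 and 22.4 CPM (0.81 ± 0.25, adjusted p = 0.0379). None of these 6 calls was made under every setting, and leaving out either telogen library left 2. In anagen no member of 28 was called in lymphatic ECs by edgeR, where 1.82% of 10392 genes were, with 4 at an unadjusted p under 0.05 and 0 by DESeq2. Leaving out anagen S1 gave 4 calls and leaving out anagen S2 gave 1. The members with most UMIs there were *Pcna* at 143 and 136 CPM in telogen and 146 and 114 CPM in anagen, *Slbp* at 71.7 and 63.4 CPM in telogen and 57.7 and 56.5 CPM in anagen and *Dut* at 25.8 and 31.9 CPM in telogen and 26.2 and 48.5 CPM in anagen. Of the mitotic genes, *Top2a* was at 18.6 and 12.8 CPM in telogen and 12.3 and 20.9 CPM in anagen, *Cenpa* at 12.6 and 14.4 CPM in telogen and 9.13 and 14.6 CPM in anagen and *Cdc20* at 8.61 and 7.39 CPM in telogen and 10.3 and 8.79 CPM in anagen.

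**Figure D5:**
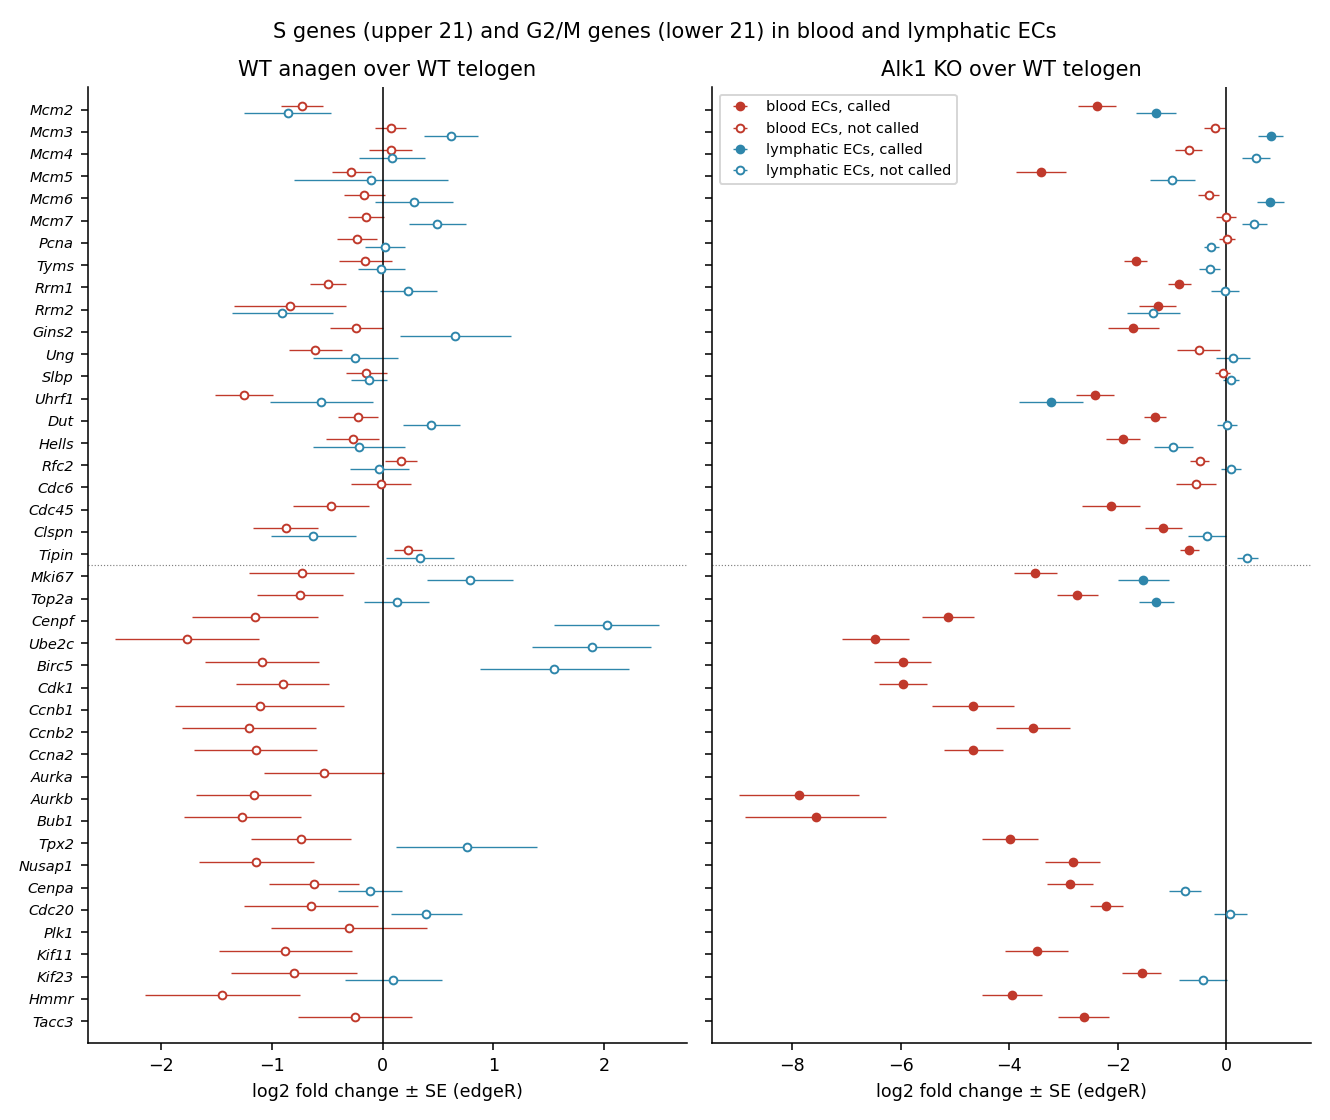
Log2 fold change with SE (edgeR) of S genes (above the dotted line) and G2/M genes (below it) in blood (red) and lymphatic (blue) ECs, for anagen (left) and KO (right) over telogen, with called genes filled. A missing point did not reach the count filter in that cell type. In the KO panel the filled red points run from -7.87 (*Aurkb*) to -0.68 (*Tipin*), and the filled blue ones from -3.23 (*Uhrf1*) to 0.82 (*Mcm3*). *Aurkb* and *Bub1* had no UMI in KO blood ECs, so their red points are fitted values and not measured sizes.

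The difference between vessel types was tested directly, as the KO effect in lymphatic ECs minus that in blood ECs. It was called for 16 of 40 genes, higher in lymphatic ECs for all 16, where 9.90% of 11989 genes were called in that direction. *Ube2c* had the smallest p (6.08 ± 0.99, edgeR adjusted p = 3.66e-04), with 1.08 and 1.56 CPM in telogen and 1.36 and 0.701 CPM in KO lymphatic ECs. *Cdc20* (2.25 ± 0.42) was at 8.61 and 7.39 CPM in telogen and 8.73 and 8.88 CPM in KO lymphatic ECs, and *Tyms* (1.31 ± 0.26) at 26.5 and 30.3 CPM in telogen and 21.3 and 26.4 CPM in KO lymphatic ECs. *Dut* (1.3 ± 0.27), *Cenpa* (2.10 ± 0.44), *Cenpf* (4.07 ± 0.90), *Tacc3* (3.32 ± 0.81), *Tipin* (1.03 ± 0.26) and *Ccna2* (5.54 ± 1.44) went the same way. So did the helicase subunits *Mcm3* (1.0 ± 0.27), *Mcm5* (2.36 ± 0.65) and *Mcm6* (1.10 ± 0.30). None of the 16 calls was made under every setting, and 13 of the 16 kept their direction throughout. The 3 that turned were *Top2a* (-0.03) with only the cycle genes left out of the clustering, where 3 genes were called, and *Mcm3* (-0.19) and *Tyms* (-0.03) without correction between libraries, where 6 were. DESeq2 called 0 of these genes, and leaving out telogen S1 or KO S1 left 9 or 10 calls. Telogen lymphatic ECs held few UMIs of some of these genes, with 7 of *Ube2c*, 14 of *Cenpf* and 2 of *Ccna2* over both libraries. For anagen the same difference was called for *Cenpf* alone of the 42 (3.15 ± 0.46, edgeR adjusted p = 0.023), where 0.0419% of 11923 genes were called. *Cenpf* was at 2.15 and 3.11 CPM in telogen and 12.3 and 6.70 CPM in anagen in lymphatic ECs and at 44.9 and 26.7 CPM in telogen and 23.3 and 6.46 CPM in anagen in blood ECs, and without anagen S1 no member was called.

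Within the same libraries, lymphatic ECs had lower levels of cycle genes than blood ECs. Of 33 genes tested 17 were lower and none higher, where 21.3% of 10959 genes were lower. *Cdk1* was at 0 to 3.50 CPM (median 2.04) over 6 libraries in lymphatic ECs and 0.366 to 38.6 CPM (median 16.4) in blood ECs (-3.11 ± 0.35, edgeR adjusted p = 4.07e-05). The licensing gene *Cdc6* was at 0.546 to 1.79 CPM (median 1.5) against 3.53 to 5.51 CPM (median 4.93) (-1.81 ± 0.24), the cytokinesis motor *Kif23* at 2.46 to 3.89 CPM (median 3.60) against 4.45 to 23.8 CPM (median 10.2) (-1.71 ± 0.28) and *Tyms* at 21.3 to 31.0 CPM (median 26.5) against 24.1 to 91.7 CPM (median 58.7) (-1.03 ± 0.21). Calls for these 4 were made under every setting. Of the 17, 12 kept their direction under every setting. With only the cycle genes left out of the clustering, 7 were called, and *Cenpf* (0.43), *Mki67* (0.26), *Top2a* (0.18), *Birc5* (0.27) and *Rrm2* (0.12) turned to values above 0. In the fit reported, *Rrm2* (-1.63 ± 0.28), *Tpx2* (-2.0 ± 0.42), *Ube2c* (-3.05 ± 0.64), *Ccnb2* (-2.26 ± 0.52), *Birc5* (-2.47 ± 0.61), *Uhrf1* (-1.16 ± 0.29), *Mki67* (-1.51 ± 0.39) and *Nusap1* (-1.80 ± 0.47) completed the 12 with the smallest p.

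Outside ECs, summed G2/M levels were also lower in both other groups than in telogen, in perineurial-like and in immune-like cells. Perineurial-like cells had summed G2/M levels of 153 and 201 CPM in telogen, 43.1 and 58.0 CPM in anagen and 44.4 and 38.7 CPM in the KO, the last on 14 and 7 UMIs. In anagen 4 of 35 genes tested fell, where 0.196% of 11216 genes did. *Ube2c* was at 13.2 and 25.1 CPM in telogen and 1.05 and 1.68 CPM in anagen (-3.63 ± 0.50, edgeR adjusted p = 0.0186) and *Cdk1* at 11.6 and 15.0 CPM in telogen and 1.05 and 2.24 CPM in anagen (-2.79 ± 0.41, adjusted p = 0.0233). *Mki67* was at 16.3 and 14.0 CPM in telogen and 2.10 and 4.76 CPM in anagen (-1.92 ± 0.36) and *Ccnb2* at 7.25 and 8.09 CPM in telogen and 0.525 and 1.40 CPM in anagen (-2.71 ± 0.51), each with an adjusted p of 0.0456. DESeq2 called 0 of them, and leaving out telogen S1, anagen S1 or anagen S2 gave 9 calls each. In the KO, on 80 and 55 cells, 4 of 31 genes tested fell and *Mcm6* rose, where 11.9% of 10349 genes fell and 10.4% rose. The count that fell thus lay near the share of all genes, and the count that rose lay below it. *Top2a*, *Ube2c*, *Cdk1* and *Cenpf* had no UMI in KO perineurial-like cells against 51 and 113, 51 and 127, 45 and 76 and 45 and 75 UMIs in telogen. Bounds on UMI counts alone were 3.04, 3.30, 2.24 and 2.22-fold lower, and they take each UMI as independent. After thinning, 94.7% of *Ube2c* and 100% of *Cenpf* UMIs of perineurial-like cells lay in 15 cells, so no minimum fold follows from these bounds. *Mcm6* was at 7.76 and 9.08 CPM in telogen and 19.0 and 44.2 CPM in the KO, on 6 and 8 UMIs. No member was called when either telogen library was left out, nor without the likely doublets.

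Immune-like cells had G2/M genes in the largest share of the 3 types compared in telogen. Their summed G2/M levels were 651 and 546 CPM in telogen, 230.4 and 398 CPM in anagen and 120 and 149 CPM in the KO, on 67 and 133 cells there. Macrophage-like cells were at 595 and 507 CPM in telogen and 130 and 128 CPM in anagen. Monocyte- and dendritic-like cells were at 1033 and 935 CPM in telogen and 709 and 991 CPM in anagen. T- and NK-like cells were at 712 and 477 against 919 and 500 CPM. Mast-like cells were at 121 and 103 against 262 and 341 CPM, on 5 and 30 UMIs in anagen. In the KO 19 of 42 genes fell and none rose, where 4.28% of 11813 genes fell. *Ube2c* was at 80.5 and 61.7 CPM in telogen and 3.75 and 2.32 CPM in the KO (-4.75 ± 0.36, edgeR adjusted p = 0.0283) and *Cdk1* at 21.1 and 19.7 CPM in telogen and 0 and 1.55 CPM in the KO (ratio 0.0542, counting interval 0.00655 to 0.196). *Birc5*, *Ccnb2*, *Rrm2*, *Cenpf*, *Ccna2* and *Hmmr* had no UMI in either KO library. By a bound on UMI counts alone they were at least 31.7, 24.5, 10.7, 9.32, 7.20 and 6.74-fold lower than in telogen. *Mcm6* (23.8 and 22.3 against 7.49 and 3.86 CPM, -2.26 ± 0.34), *Tyms* (33.1 and 32.7 against 0 and 4.64 CPM, -3.41 ± 0.56), *Tacc3* (20.5 and 15.4 against 3.75 and 1.55 CPM, -3.07 ± 0.51) and *Nusap1* (16.5 and 13.6 against 0 and 1.55 CPM) fell too. Without telogen S1 the calls came down to 3 and without telogen S2 to 0. In anagen no member, and 0% of 11634 genes, was called by edgeR, with 25 of the 42 at an unadjusted p under 0.05, 4 by DESeq2 and 11 without anagen S2. *Cenpa* was at 143 and 111 CPM in telogen and 118 and 129.5 CPM in anagen, *Mki67* at 85.4 and 73.5 CPM in telogen and 28.2 and 30.1 CPM in anagen and *Ube2c* at 80.5 and 61.7 CPM in telogen and 11.7 and 46.3 CPM in anagen. Of the S list, *Pcna* was at 161 and 158 CPM in telogen and 146 and 64.8 CPM in anagen, *Slbp* at 51.9 and 59.5 CPM in telogen and 57.5 and 39.3 CPM in anagen and *Dut* at 34.1 and 32.6 CPM in telogen and 14.7 and 16.2 CPM in anagen. Macrophage-like cells made up 628 of 925 and 1433 of 1996 immune-like cells in telogen and 36 of 67 and 70 of 133 in the KO. Their clusters held 110 and 111 of 280 immune-like cells in anagen S1 and 27 and 17 of 91 in anagen S2. The part of this makeup in these values was not tested.

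Across cell types, ECs held more of most cycle genes than perineurial-like cells and a mixed pattern against immune-like cells. Against perineurial-like cells 27 of 38 genes tested were higher in ECs, where 31.4% of 12060 genes were, and 2 were lower, where 28.0% were. *Mcm3* was at 22.0 to 29.9 CPM (median 26.8) over 6 libraries in ECs and 3.17 to 16.6 CPM (median 6.63) in perineurial-like cells (1.97 ± 0.17, edgeR adjusted p = 1.34e-06), and *Pcna* at 135 to 187 CPM (median 173) against 58.0 to 111 CPM (median 71.8) (1.28 ± 0.13). *Tyms* (1.99 ± 0.18), *Uhrf1* (1.80 ± 0.26), *Mcm2* (1.51 ± 0.22), *Clspn* (2.13 ± 0.32), *Hells* (1.18 ± 0.22) and *Slbp* (0.64 ± 0.13) of the S list were higher in ECs, as were *Cenpa* (1.87 ± 0.28), *Birc5* (1.99 ± 0.36) and *Ccnb2* (1.81 ± 0.37) of the G2/M list. *Dut* was lower in ECs, at 24 to 43.1 CPM (median 39.6) against 55.3 to 85.7 CPM (median 63.5) (-0.79 ± 0.13, adjusted p = 2.86e-04), and so was *Gins2*. Of these calls 14 were made under every setting, *Mcm3*, *Tyms*, *Pcna* and *Dut* among them.

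Against immune-like cells 5 of 42 genes were higher in ECs, where 32.2% of 12514 genes were, and 10 were lower, where 28.0% were, so both counts lay below the share of all genes. *Cenpa* was at 5.02 to 31.3 CPM (median 19.3) in ECs and 54.3 to 143 CPM (median 114) in immune-like cells (-3.01 ± 0.20, edgeR adjusted p = 6.75e-07), with no overlap. *Mki67* was lower in ECs (-2.16 ± 0.40), and *Tipin* (1.10 ± 0.23) and *Tyms* (1.32 ± 0.35) were higher. Calls for these 4 were made under every setting. *Kif23* (-1.45 ± 0.40), *Kif11* (-1.17 ± 0.37), *Tacc3* (-1.28 ± 0.40), *Ube2c* (-1.22 ± 0.41), *Birc5* (-1.06 ± 0.36) and *Cdc6* (-1.20 ± 0.36) were lower in ECs, and *Ung* (1.12 ± 0.35) and *Cdc20* (1.04 ± 0.37) higher. The total of calls came down to 8 without telogen S1 and to 9 without telogen S2.

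Other genes of the cell cycle were described as lists in KO ECs. Of 60 further cycle genes 56 were tested, and 40 fell and 3 rose, where 17.3% of 12890 genes tested fell and 14.8% rose. *Stmn1*, a tubulin-binding protein, was at 253 and 238 CPM in telogen, 192 and 113 CPM in anagen and 56.2 and 70.0 CPM in KO ECs (-2.01 ± 0.12, edgeR adjusted p = 5.60e-05). *Pclaf*, a Pcna partner, was at 32.5 and 32.4 CPM in telogen and 5.99 and 7.11 CPM in the KO (-2.36 ± 0.16), and thymidine kinase *Tk1* at 13.6 and 9.37 and 0.624 and 0.735 CPM (-4.10 ± 0.37). *Cdca8*, of the passenger complex, was at 17.3 and 10.8 and 0.624 and 0.858 CPM (-4.27 ± 0.39), and *Prc1*, which bundles spindle microtubules, at 18.3 and 16.4 and 0.999 and 2.70 CPM (-3.27 ± 0.34).

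Genes that act before S phase went both ways in KO ECs. Of all genes tested there, 17.3% were lower and 14.8% higher. For lists so short the counts below lay near those shares, and they are not read as a result about the lists. Of 10 cyclins and kinases of G1, 3 fell and 2 rose. Cyclin D1 (*Ccnd1*), which pushes cells out of G1, was at 111 and 127 CPM in telogen, 189 and 142 CPM in anagen and 18.5 and 13.0 CPM in KO ECs (-2.97 ± 0.17, edgeR adjusted p = 4.91e-05). *Ccnd2* (-1.03 ± 0.12) and their kinase *Cdk4* (-0.61 ± 0.10) fell with it, and *Ccne2* (0.77 ± 0.25) and *Myc* (0.57 ± 0.13) rose. Of 10 CDK inhibitors and pocket proteins 8 were tested, and 2 rose, *Rb1* (0.52 ± 0.14) and *Rbl2* (0.65 ± 0.16), the brakes on E2F. Of 14 regulators of cycle transcription 3 fell, *E2f1* (-2.28 ± 0.36), *E2f2* (-1.49 ± 0.33) and *Foxm1* (-2.51 ± 0.55), and 2 rose, *E2f8* (1.22 ± 0.27) and *Lin52* (1.27 ± 0.31). In anagen ECs *E2f2* was the only gene of these 4 lists that was called (-1.63 ± 0.25, adjusted p = 0.0307), at 7.47 and 8.64 CPM in telogen and 2.10 and 2.5 CPM in anagen.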

How the data were processed

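Cells from 6 mice were profiled with the 10x 3′ v3 assay. The authors aligned reads to mm10 with Cell Ranger 6.0.1 and deposited the raw UMI count of each gene in each cell, and their own clustering in Seurat 4.0 was not used here. The 42 genes and all gene lists were chosen with earlier results of these data known. Cells with 200 to 5000 genes and under 10% mitochondrial UMIs were kept. No doublets were removed in the values reported. Scrublet's own threshold marked under 0.5% of cells in all libraries but telogen S2, so the highest 5% of scores were called likely doublets in the other 5 libraries.

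Clustering used Python 3.11.15, scanpy 1.11.5 and leidenalg 0.10.2, with 3000 variable genes, 30 principal components corrected between libraries, 20 neighbours and resolution 0.6. The 42 genes, other cycle genes and the 200 genes that followed the 42 most closely in ECs were left out of the EC clustering, a choice made from measured values. Clusters were named from at least 3 markers with a fold over 2 in at least 25% of cells, and names differ in origin from those of the study.

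For shares, UMIs were drawn down to 1500 per cell, and 100 to 342 ECs per library with fewer did not enter. The library was the replicate in exact permutation tests (scipy 1.17.1), two-sided, with Benjamini-Hochberg adjustment in each family. Counts were summed per library and cell type where each library had at least 20 cells, and tested with edgeR 4.0.16 (quasi-likelihood, TMM, filterByExpr, R 4.3.3). The SE given after ± with a log2 change was derived as the size of the change divided by the square root of the F statistic of that test. P-values were adjusted by Benjamini-Hochberg over all genes tested. Comparisons of cell types and their interactions with group included the library. The CPM values are UMI counts scaled to one common total per summed group of cells, and a fold against a group without UMIs is a bound set at 3 counts over the group. Such bounds and the counting intervals take each UMI as independent, although several UMIs of a gene can come from the same cell. Named genes were the called members, up to 12 with the smallest p, or, with fewer than 3 called, the 3 members of each list with most UMIs, and up to 6 called genes of the other lists, beside which further called genes of those lists were named after their values were seen. Alternatives were DESeq2 1.42.0, no count filter, no fold threshold, stricter or wider cell filters, other clusterings, other depths and gene minimums, and each library left out. The fits of ECs were tested on simulated counts with an assumed spread between libraries, among genes with enough counts. Of 2-fold changes they recovered 44.8% for anagen and 36.2% for the KO, and of 4-fold changes 97.9% and 98.9%.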

Additional observations from a re-analysis of the deposited data

Results flagged for a closer look

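Genes whose change in lymphatic ECs differed from that in blood ECs are given with the difference of the log2 changes, lymphatic minus blood (edgeR, adjusted p below 0.05). For anagen against telogen this was *Cenpf*, with 3.15. For the KO against telogen the mitotic genes were *Ube2c* with 6.08, *Ccna2* with 5.54, *Cenpf* with 4.07, *Tacc3* with 3.32, *Nusap1* with 2.78, *Ccnb2* with 2.66, *Cdc20* with 2.25, *Cenpa* with 2.1 and *Top2a* with 1.41. The replication genes were *Mcm5* with 2.36, *Tyms* with 1.31, *Dut* with 1.3, *Mcm4* with 1.21, *Mcm6* with 1.10, *Tipin* with 1.03 and *Mcm3* with 1.0.

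Barcodes with over 5000 genes stayed out of all comparisons, and in telogen S1, telogen S2 and anagen S1 they often carried mitotic transcripts. After thinning, 2 or more G2/M genes were found in 42.3% of them in telogen S1 (22 of 52), 40% in telogen S2 (12 of 30) and 57.1% in anagen S1 (4 of 7), against 5.17, 5.33 and 2.65% of the cells kept in the same libraries. In anagen S2, 0 of 5 such barcodes had 2 or more G2/M genes. In each KO library the only such barcode had fewer than 2 G2/M genes.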

How the results depend on the processing

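Of the alternatives that kept all libraries, 211 values stayed close to those reported, others moved further or lost their call, and the causes were not tested. The share of ECs with G2/M genes, anagen minus telogen, was -0.242 points and turned to 0.620 under the strict cell filter (500 genes, 5% mitochondrial), 0.317 without likely doublets and 0.347 without ECs holding immune genes, and was -1.36 without thinning. The KO difference of -2.34 points stayed negative, at -1.66 under the strict filter, -2.51 without an upper gene limit, -1.74 without likely doublets, -3.41 at 3000 UMIs, -5.07 without thinning, -3.80 with 1 gene, -2.14 with 3 genes and -1.70 without ECs holding immune genes, a setting chosen after seeing the data. The S difference turned from 0.90 to -0.582 at 3000 UMIs in anagen (4.0 without thinning, 1.46 with 1 gene, 0.162 with 3), and in the KO was -3.44 at 3000 UMIs, -4.65 without thinning, turned from -0.809 to 1.02 with 1 gene, and was -2.21 with 3. ECs minus immune-like cells in S genes turned from 2.11 to -8.88 without thinning. The depth ratio of 0.77 lost its call at 3000 UMIs (0.511), with 1 gene (0.131), with 3 genes (1.06) and without ECs holding immune genes (0.409).

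Counts of the 42 genes called moved as follows. Without a count filter they were 2 in ECs in anagen, 9 in blood, 3 in lymphatic, 12 in perineurial-like and 21 in immune-like cells in anagen, 9 and 31 in perineurial-like and immune-like cells in the KO, 30 for lymphatic against blood ECs and 7 for the anagen interaction. DESeq2 gave 1 for the KO in lymphatic ECs, 0 and 2 for anagen and KO in perineurial-like cells, 4 for anagen in immune-like cells, and 2 and 0 for the anagen and KO interactions. The strict filter gave 1 for the KO in lymphatic ECs, 11 for the KO in immune-like cells, 16 for ECs against perineurial-like cells, 8 for lymphatic against blood ECs, and 0 and 10 for the interactions. Without an upper gene limit the counts were 10 (lymphatic KO), 2 (perineurial-like, anagen) and 9 (ECs against immune-like cells). Without likely doublets they were 2 and 0 in perineurial-like cells, 8 for ECs against immune-like cells and 0 for the anagen interaction. Without correction between libraries they were 10 (lymphatic KO), 2 (perineurial-like, anagen), 8 (lymphatic against blood ECs), and 0 and 6 (interactions). Resolution 1.2 gave 3 (lymphatic KO), 0 and 10 (interactions). Leaving only the fixed cycle genes out of the clustering gave 14 for the KO in blood ECs, 7 for lymphatic against blood ECs and 3 for the KO interaction. One fit over all 6 libraries gave 2 for perineurial-like cells in anagen.

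Replicate numbers did not pair the samples (correlations of deviations from -0.0875 to 0.0244). With the replicate block, 1 gene was called in lymphatic ECs and 12 in perineurial-like cells in anagen, and 31 in ECs in the KO.

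With 1 library left out, the lone library of an arm was assumed to vary like the other groups. The G2/M difference in ECs ran from -0.919 to 0.435 points in anagen and from -2.42 to -2.26 in the KO, and the S difference from 0.542 to 1.26 and from -2.07 to 0.449. ECs minus perineurial-like cells ran from 1.03 to 1.60 (G2/M) and 2.46 to 5.34 (S), ECs minus immune-like cells from -4.67 to -2.31 and 0.621 to 2.63, and lymphatic minus blood ECs from -1.79 to -0.884 and -5.55 to -3.16. The depth ratio ran from 0.652 to 0.877, where 5 libraries allow no p below 0.0625. Genes called ran from 0 to 20 in ECs in anagen (20 without anagen S1) and 26 to 31 in the KO, from 0 to 9 and 22 to 30 in blood ECs, 0 to 4 and 2 to 8 in lymphatic ECs, 3 to 9 and 0 to 6 in perineurial-like cells, and 0 to 11 and 0 to 29 in immune-like cells (29 without KO S1). They ran from 21 to 33 for ECs against perineurial-like cells, 8 to 17 against immune-like cells, 12 to 21 for lymphatic against blood ECs, and 0 to 8 and 9 to 17 for the anagen and KO interactions. With 2 mice per group, and KO libraries of 10615358 and 11239445 UMIs, changes near 2-fold and changes of genes with few UMIs may have been missed.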
